A study of Mus musculus with 6 samples.

Results

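The comparison described here set RNA from sham-operated mouse skeletal muscle against Pre, a common reference RNA from control muscle, on 1 of the 6 spotted arrays of the series. The sham mice carried an implanted pacer that was never switched on, and their muscle was taken at the time that corresponds to the end of stimulation in paced mice. Pre is named only as control muscle, so whether those mice had been operated is not stated, and neither are strain, age, sex, the muscle sampled, the time since implantation or the number of mice in either RNA. The other 5 arrays, from mice paced for 3 h and sampled 0, 1, 3, 8 and 24 h later, enter no count below and are quoted for single genes. Genes were those whose probes carry exactly 1 gene symbol: 3860 of 3939 had a measured value on the sham array, 1135 of them on several probes, and 79 had none.

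Skeletal muscle answers operation, stress hormones and reduced feeding with a well-known set of transcripts. Glucocorticoid receptor and FoxO transcription factors induce the muscle ubiquitin ligases, which mark contractile proteins for the proteasome, and Pdk4, a kinase that shuts off pyruvate dehydrogenase and so spares glucose while fat is burned. Tissue injury also calls up acute phase and immediate early genes, and an incision can bring in leukocytes, vessel, fat or connective tissue. The sham comparison shows where each of these groups stood without electrical stimulation.

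Values are log2 ratios of sham over Pre, so 1 is 2-fold higher and -1 is 2-fold lower in sham muscle. The direction is the likely one, since the labels name Pre as the reference channel but do not give the dyes. With the ratio turned, each value would keep its size and change its sign, so higher and lower, and highest and lowest, would change places throughout: Actg2 would be the lowest gene, Abhd10 the highest, and the glucocorticoid-responsive list the lowest of the larger lists. With 1 array there was no replicate and no test, and a fixed size of 2-fold was used to call genes. The error that the array does hold is the disagreement between probes of one gene: the pooled probe SD was 0.44 over the 1135 genes with several probes, against an SD of 0.52 among the 2725 genes with 1 probe. These probes shared 1 RNA, 1 slide and 1 assignment of dyes, so the probe SD does not cover variation between animals or an effect of the dyes. The deposited values are ratios, so the muscle identity of the sample could not be checked by level. The ratios of the defining muscle genes were 0.05 for Acta1, skeletal actin (10 probes, probe SD 0.46), -0.50 for Ckm, muscle creatine kinase (5 probes, probe SD 0.64), -0.54 for Myh4, a fast myosin (42 probes, probe SD 0.70), and -0.49 for Atp2a1, the calcium pump of fast fibres (5 probes, probe SD 0.29).

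In sham muscle 86 of 3860 genes (2.23%) were at least 2-fold higher than in Pre and 78 (2.02%) at least 2-fold lower, 164 (4.25%) in all. The median over all genes was -0.02, 47.6% of genes stood above 0, and 5% of genes were below -0.79 and another 5% above 0.74. The calls came almost wholly from genes with 1 probe: 80 higher and 73 lower among 2725 such genes, which is 5.61% of them. Genes with several probes supplied 6 higher and 5 lower calls out of 1135. The shares of all genes stand beside most counts of list members past 2-fold below. Those shares do not allow for the number of probes. Calls made up 1.48% of genes with 2 probes, 0.32% with 3 or 4 and 0% with 5 to 82. Just inside the threshold lay Cd36 and Rps19 at 1.00 and, on the lower side, Mtr, Dmpk and Ero1b, all within 0.01 of -1. Just outside it lay Atf4 and Slc22a23 at 0.99 and, on the lower side, Icam2, Acacb and Krba1, also within 0.01 of -1.

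**Figure D1:**
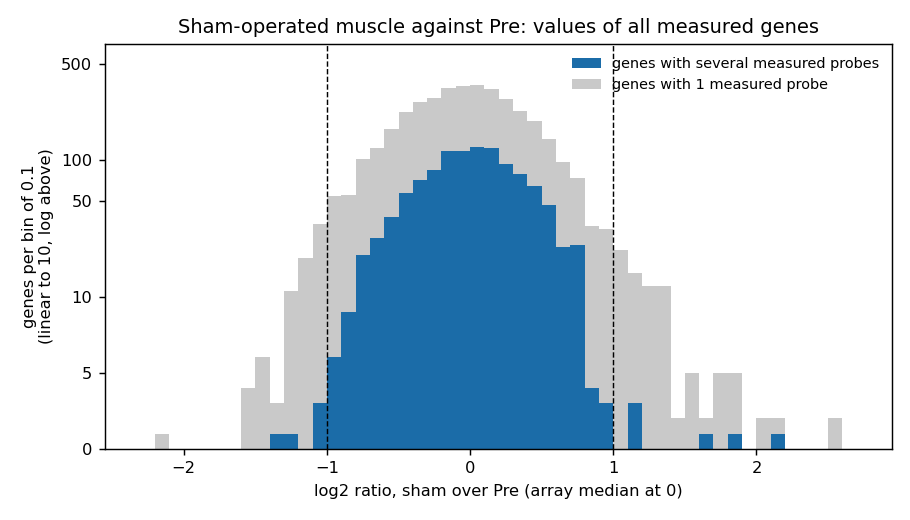
Number of genes (vertical axis, linear to 10 and logarithmic above) by log2 ratio of sham over Pre (horizontal axis, bins of 0.1), with genes of several probes in blue and genes of 1 probe stacked in grey; dashed lines mark 2-fold. Of the genes past 2-fold, 11 had several probes, 6 higher and 5 lower, and 80 higher and 73 lower had 1.

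Within this array, the best measured differences were those in which separate probes agreed. In 3 genes every probe lay past 2-fold: Ppp1r3c, which brings a phosphatase to glycogen and so favours glycogen synthesis, Pdk4, and Txnip, a thioredoxin-binding protein that restrains glucose uptake. Ppp1r3c read 2.10 and 2.11 on its 2 probes, a 4.31-fold excess in sham muscle. Pdk4 read 1.44, 1.62 and 2.59 on 3 probes, a mean of 1.88 or 3.69-fold. Txnip read 1.15 and 1.19, a mean of 1.17 or 2.24-fold. All 3 were higher in the sham RNA, and they belong to different lists below. Pdk4 is on the glucocorticoid, fat and TCA cycle lists, Ppp1r3c on that of glycolysis and glycogen, and Txnip on that of the antioxidant and thioredoxin system.

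Trim63, the ubiquitin ligase MuRF1 that attacks thick filament proteins, averaged 1.61, but its probes were 0.81 and 2.41. Maf1, a repressor of RNA polymerase III, averaged 1.17 with probes at 0.69 and 1.66, and Mlip, a muscle protein that binds lamin, averaged 1.14 with probes at 0.92 and 1.37. In these genes each probe was above 0 while 1 of the 2 stayed under 2-fold. On the lower side the probes of Mylk3, a myosin light chain kinase, stood at -1.81 and -0.88, and those of Dmpk, the kinase gene of myotonic dystrophy, at -1.11 and -0.89. Leng9 had probes at -1.08 and -0.99 and E230024E03Rik at -1.28 and -0.77. Cdo1, the cysteine dioxygenase that starts taurine synthesis, averaged -1.24 from probes at -2.35 and -0.12, so its call rests on 1 probe.

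**Figure D2:**
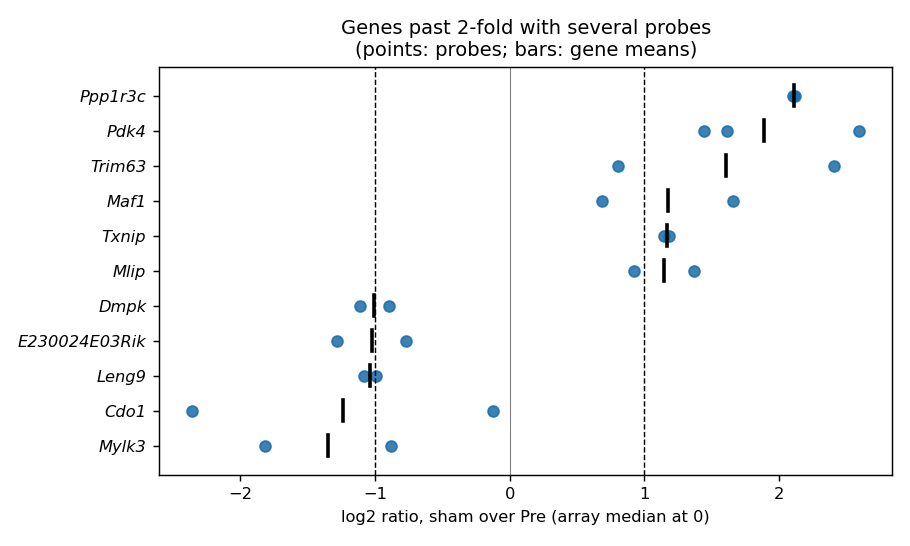
Log2 ratio of sham over Pre (horizontal axis) for the 11 genes past 2-fold that had several measured probes; points are probes, black bars are gene means and dashed lines mark 2-fold. Probes of Ppp1r3c and Txnip nearly coincide, whereas those of Cdo1 lie at -2.35 and -0.12.

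Promoters of 4 of these genes are shown: Ppp1r3c, Pdk4 and Txnip, because every probe of each was past 2-fold, and Trim63, because it is the textbook target of glucocorticoid receptor and FoxO in muscle. The windows run from 250 bases before to 50 bases after the gene start (RefSeq, GRCm38.p6), and capitals mark every match, on either strand, to a forkhead element TTGTTTAC, its core TGTTTAC, the glucocorticoid receptor hexamer AGAACA or the E-box CACGTG.
Trim63, chr4:134314870-134315169 (plus strand): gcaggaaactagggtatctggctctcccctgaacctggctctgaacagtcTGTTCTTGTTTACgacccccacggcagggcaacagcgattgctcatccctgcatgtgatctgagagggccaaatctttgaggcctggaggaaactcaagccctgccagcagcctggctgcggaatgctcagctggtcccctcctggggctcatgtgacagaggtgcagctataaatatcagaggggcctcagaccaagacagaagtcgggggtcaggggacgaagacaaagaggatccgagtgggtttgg
Txnip, chr3:96557707-96558006 (plus strand): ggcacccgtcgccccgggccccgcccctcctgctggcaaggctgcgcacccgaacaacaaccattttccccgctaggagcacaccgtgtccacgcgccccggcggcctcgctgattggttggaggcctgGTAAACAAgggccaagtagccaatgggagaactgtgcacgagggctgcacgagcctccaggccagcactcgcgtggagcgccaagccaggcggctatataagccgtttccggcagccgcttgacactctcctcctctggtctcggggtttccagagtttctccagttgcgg
Ppp1r3c, chr19:36736555-36736854 (minus strand): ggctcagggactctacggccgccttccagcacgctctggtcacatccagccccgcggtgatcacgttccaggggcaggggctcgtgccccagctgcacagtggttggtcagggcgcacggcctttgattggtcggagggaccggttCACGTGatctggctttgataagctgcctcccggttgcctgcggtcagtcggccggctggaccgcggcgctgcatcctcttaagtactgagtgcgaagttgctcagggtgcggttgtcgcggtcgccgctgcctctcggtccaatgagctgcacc
Pdk4, chr6:5496229-5496528 (minus strand): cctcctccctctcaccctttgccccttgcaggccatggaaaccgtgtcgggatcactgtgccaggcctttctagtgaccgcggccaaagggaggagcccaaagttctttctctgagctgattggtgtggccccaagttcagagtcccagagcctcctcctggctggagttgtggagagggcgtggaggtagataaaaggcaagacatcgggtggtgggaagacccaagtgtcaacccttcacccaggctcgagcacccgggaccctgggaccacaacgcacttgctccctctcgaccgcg
Trim63 held the forkhead element with its first base at position -195 from the gene start, overlapping by its first base the reverse complement of the glucocorticoid receptor hexamer. Txnip held the forkhead element on the opposite strand from position -121. Ppp1r3c held an E-box, and the Pdk4 window held none of these letters, which says only that they are absent from this window. Over all 32851 promoter windows of the same length, 1.23% held the forkhead element, 3.65% its core (the element contains the core), 7.15% the E-box and 18.97% the hexamer. A match is a description of the letters, not a sign that a factor was bound.

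Glucocorticoid-responsive genes had the highest median of the lists with at least 10 measured genes, 0.45 over 17 genes, against -0.02 over all genes, in the likely direction of the ratio. Of the 17, 16 (94.1%) stood above 0 and 3 (17.6%) were past 2-fold higher, Pdk4, Trim63 and Fbxo32, where 2.23% of all genes were. Fbxo32, the ligase atrogin-1, stood at 1.36 on 1 probe, 2.58-fold above Pre. The remainder of the list was higher by less: Mt1, a metal-binding metallothionein whose spot may also bind Mt2, at 0.88, Sgk1, a serum- and glucocorticoid-induced kinase, at 0.69 (2 probes, probe SD 0.55), and Tsc22d3, the glucocorticoid-induced leucine zipper, at 0.59. Nr3c1, the receptor itself, stood at 0.58, Ddit4, an inhibitor of mTOR signalling, at 0.45, and Glul, glutamine synthetase, at 0.37. Fkbp5, a chaperone of the receptor, was at 0.27 and Klf9 at 0.21. Per1, Dusp1 and Cebpd, which glucocorticoids also induce, stood at 0.04, 0.02 and 0.00, and Nfkbia at -0.06 was the 1 member below 0. Only 4 of the 17 genes had several probes, and the values from Glul downwards lie within the pooled probe SD of 0.44. The members of this and the other lists were chosen with earlier results of these data known, so the rank of the list is a description only. Its 3 genes past 2-fold are also on the fat and TCA cycle lists (Pdk4) or the atrophy list (Trim63 and Fbxo32).

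Atrophy ligases, FoxO targets and autophagy genes had a median of 0.29 over 17 genes, with 12 above 0. Past 2-fold higher were 4 (23.5%, against 2.23% of all genes) and past 2-fold lower 0 (against 2.02%), with Trim63 and Fbxo32 already counted in the list above. Beside Trim63 and Fbxo32 these were Ctsl, a lysosomal protease of muscle wasting, at 1.33, and Gadd45a, a stress gene that also responds to denervation, at 1.34, on 1 probe each. Map1lc3b, the autophagosome marker LC3B, stood at 0.89 and Ulk1, the kinase that starts autophagy, at 0.70 with probes that disagreed (probe SD 0.82). Bnip3, a mitophagy receptor, was at 0.26 (probe SD 0.80). Members also lay on the other side of 0: Sqstm1, the cargo receptor p62, stood at -0.28, Gabarapl2 at -0.46 and Foxo4, one of the FoxO factors, at -0.89. Trim63, Fbxo32 and Sesn1 belong to both lists, so the counts of the lists are not independent.

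**Figure D3:**
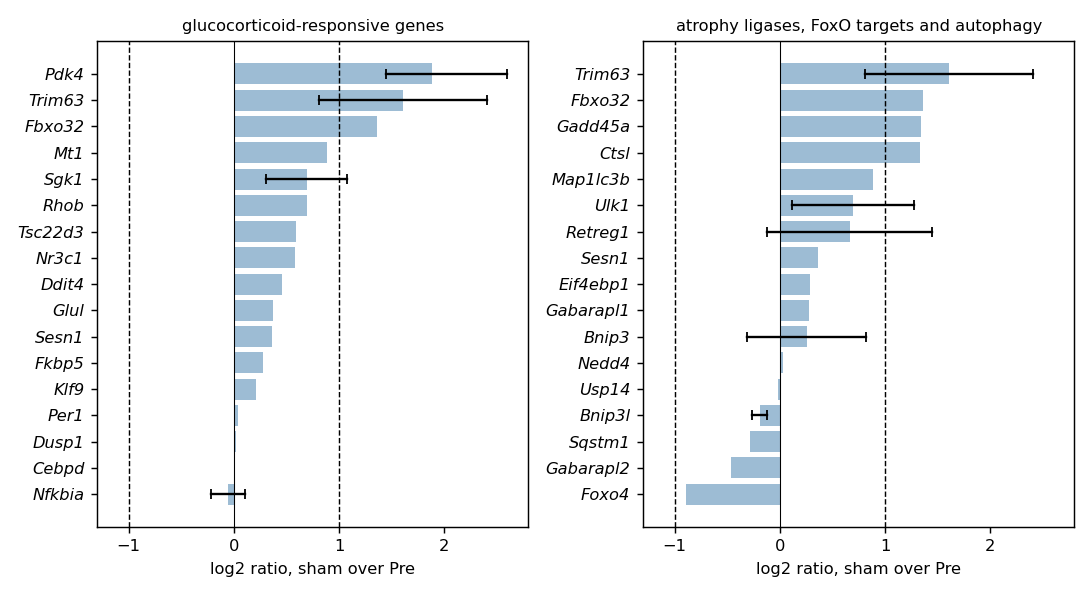
Log2 ratio of sham over Pre for each measured glucocorticoid-responsive gene (left) and each atrophy, FoxO target and autophagy gene (right); bars are gene means, black lines span the lowest to the highest probe where a gene had several, and dashed lines mark 2-fold. In the left panel 16 of 17 genes lie above 0, in the right panel 12 of 17.

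The proteasome, which degrades what the ligases mark, had a median of 0.26 over 27 genes with 20 above 0. Past 2-fold in either direction were 0 members, against 4.25% of all genes. However, 13 of the 27 had several probes, and such genes were called less often. Psmc5, an ATPase of the regulatory cap, was highest at 0.92 and Psmc1, another of these ATPases, lowest at -0.72, on 1 probe each. Members with several probes included Psmd4, a ubiquitin receptor of the cap, at 0.78 (5 probes, probe SD 0.37) and Psmb1, a core subunit, at 0.59 (6 probes, probe SD 0.47).

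Genes of fat use had a median of 0.23 over 34 genes, 23 above 0, with 4 (11.8%, against 2.23% of all genes) past 2-fold higher, Pdk4 among them, and 0 past 2-fold lower (against 2.02%). Mlycd, which removes malonyl-CoA and so lifts the block on mitochondrial fat entry, was 4.44-fold above Pre, at 2.15 on 1 probe. Eci2, an isomerase for unsaturated fatty acids, stood at 1.22 and Cd36, the fatty acid transporter, at 1.00, on 1 probe each. Enzymes of the oxidation spiral mostly stood above 0, Echs1 at 0.65 on 1 probe and Acaa2 at 0.29 (2 probes, probe SD 0.04) included. Among them were Hadha and Hadhb, the trifunctional protein, both at 0.35 (4 probes, probe SD 0.47, and 5 probes, probe SD 0.35) and Acadm, the medium-chain dehydrogenase, at 0.34 (4 probes, probe SD 0.21). Acads, the short-chain dehydrogenase, stood at 0.088 (3 probes, probe SD 0.21), Acadvl, the very long-chain one, at 0.067 (2 probes, probe SD 0.24) and Hadh, which acts on shorter chains, at -0.067 (3 probes, probe SD 0.22). Lpl, lipoprotein lipase, was at 0.33 (11 probes, probe SD 0.51). Both acetyl-CoA carboxylases, which make malonyl-CoA, were on the other side of 0: Acacb, the muscle form, at -0.995, just short of 2-fold, and Acaca at -0.62 (2 probes, probe SD 0.29). Ppara, the fasting receptor of lipid metabolism, stood at -0.65 and Slc25a20, the carnitine carrier, at -0.69.

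Glycolysis and glycogen genes were centred on Pre, with a median of 0.00 over 29 genes, 15 above and 14 below. Past 2-fold higher were 2 (6.90%, against 2.23% of all genes), Ppp1r3c and Pfkfb3, which makes the activator of phosphofructokinase, at 1.01. Past 2-fold lower was 1 (3.45%, against 2.02%), Pygb, the brain form of glycogen phosphorylase, at -1.59. Pygm, the muscle form of the phosphorylase, stood at -0.14 (9 probes, probe SD 0.46) and Gys1, muscle glycogen synthase, at -0.06 (2 probes, probe SD 0.03). Ppp1r3a, the glycogen-targeting subunit of striated muscle, stood at 0.34 on 1 probe, so the members with this role differed, Ppp1r3c being 4.31-fold above Pre. Hk2, the insulin-regulated hexokinase, was at 0.50, Pfkm at -0.02 (5 probes, probe SD 0.23) and Ldha at -0.18 (10 probes, probe SD 0.26). Hypoxia-responsive genes, which overlap this list, had a median of 0.26 over 13 genes, 8 above and 5 below 0. Past 2-fold higher was 1 (7.69%, against 2.23% of all genes), Pfkfb3, already counted here. Pgk1 stood at 0.52 (4 probes, probe SD 0.27) and Vegfa, the vessel growth factor, at -0.09.

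Insulin signalling genes had a median of -0.11 over 19 genes, 12 below 0. Past 2-fold higher were 0 (against 2.23% of all genes) and past 2-fold lower 1 (5.26%, against 2.02%). That gene was Akt1, a kinase downstream of the insulin receptor, at -1.08 on 1 probe, and Akt2, the form most tied to glucose uptake, was at -0.69. Slc2a4, the insulin-regulated glucose transporter, stood at -0.19 on 3 probes that agreed closely (probe SD 0.04). Tbc1d1, a regulator of that transporter, was highest at 0.52 (2 probes, probe SD 0.49).

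Mitochondrial energy genes lay slightly above Pre. The 79 respiratory chain and ATP synthase genes, assembly factors included, had a median of 0.25 with 61 above 0. None was past 2-fold higher (against 2.23% of all genes), but 58 of the 79 had several probes, and such genes were called less often. Past 2-fold lower was 1 (1.27%, against 2.02%), the assembly factor gene Ndufaf7 at -1.07. By complex, all 16 ATP synthase subunit genes stood above 0 (median 0.34, range 0.03 to 0.73), as did 6 of 7 complex III genes (median 0.56), 10 of 13 complex IV genes (median 0.36), 4 of 4 complex II genes (median 0.24) and 22 of 30 complex I subunit genes (median 0.24). The 6 complex I assembly factors had a median of -0.09, with 2 above 0. Well-covered members include Cox4i1 at 0.51 (7 probes, probe SD 0.12), Atp5c1 at 0.43 (10 probes, probe SD 0.19) and Atp5b at 0.42 (6 probes, probe SD 0.35). TCA cycle and pyruvate dehydrogenase genes had a median of 0.25 over 26 genes, 22 above 0. Past 2-fold higher was 1 (3.85%, against 2.23% of all genes), Pdk4, and past 2-fold lower 0 (against 2.02%). Sdha, Sdhb, Sdhc and Sdhd, the complex II genes, are on both lists. Pdha1, the subunit that Pdk4 phosphorylates, stood at 0.50 on 3 probes within a probe SD of 0.03, while Pcx, pyruvate carboxylase, stood at -0.81 on 1 probe.

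The 63 cytosolic ribosomal protein genes had a median of 0.30 with 52 above 0. Past 2-fold were 2 higher (3.17%) and 1 lower (1.59%), near the 2.23% and 2.02% of all genes. The 40 genes of the large subunit had a median of 0.38, with 36 above 0, and the 23 genes of the small subunit a median of 0.16, with 16 above. Rpl34 at 1.09 and Rps19 at 1.00 were past 2-fold higher and Rps4x at -1.29 was past 2-fold lower, each on 1 probe, and cDNA spots of this family can bind related sequences. Rplp0, a stalk protein, stood at 0.49 (13 probes, probe SD 0.35) and Rpl4 at 0.53 (9 probes, probe SD 0.26). Translation factors had a median of 0.16 over 31 genes, 22 above 0, with Eif4a2, a helicase of initiation, at 1.08 on 1 probe and Pabpc1, the poly(A)-binding protein, lowest at -0.67. Mitochondrial ribosomal protein genes had a median of -0.01 over 41 genes, 20 above 0. Of these, 1 (2.44%, against 2.23% of all genes) was past 2-fold higher, Mrpl41 at 1.15.

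The median also differed with the number of probes a gene had, without a steady rise, and the mitochondrial and ribosomal lists hold many genes with several probes. It was -0.05 for the 2725 genes with 1 probe, -0.05 for the 677 genes with 2 probes, 0.08 for the 317 genes with 3 or 4 probes, 0.18 for the 108 genes with 5 to 9 probes and 0.10 for the 33 genes with 10 to 82 probes. Within the class of 5 or more probes the 24 respiratory chain and ATP synthase genes had a median of 0.26, all above 0, against 0.14 for the 117 other genes, of which 64.1% were above 0. Within the class of 1 probe the medians were 0.11 for 21 respiratory chain genes and -0.05 for 2704 others. For ribosomal protein genes they were 0.50 (8 genes) against 0.16 with 5 or more probes, and 0.23 (26 genes) against -0.05 with 1 probe. In each of these classes the median of both lists was above that of the other genes. The part of probe number in the list medians was not tested.

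**Figure D4:**
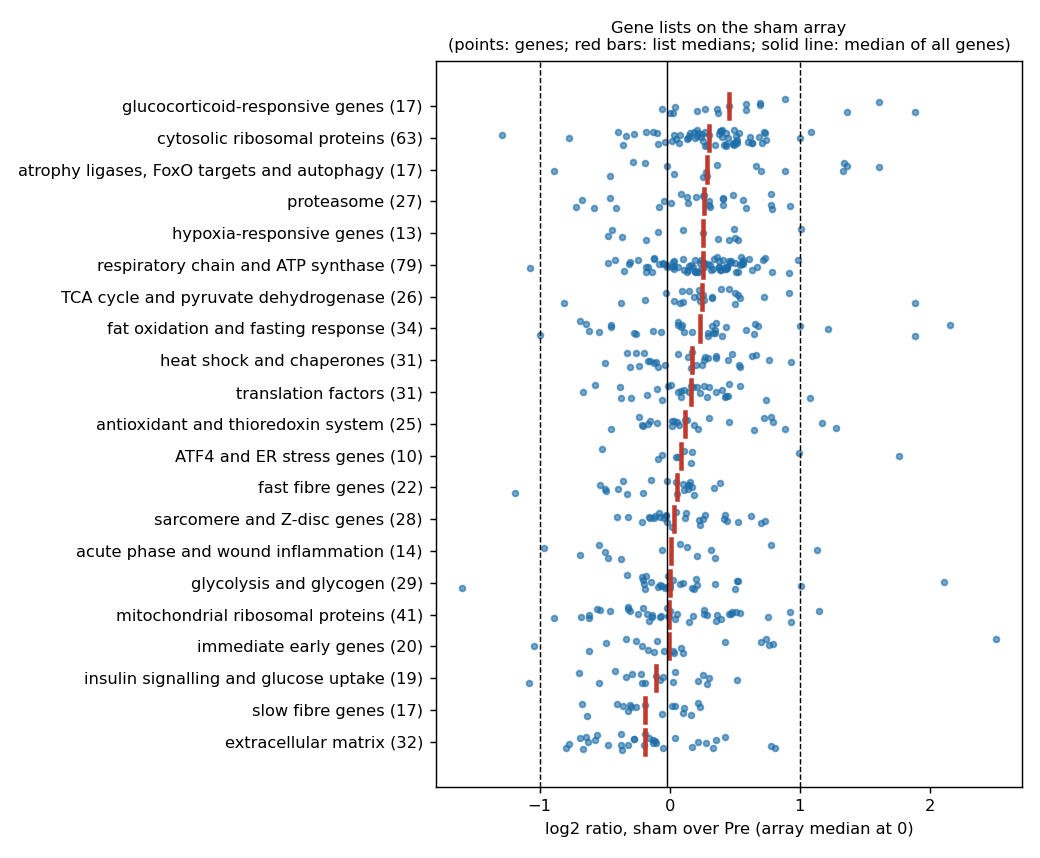
Log2 ratio of sham over Pre (horizontal axis) for each gene list with at least 10 measured members, with the number measured in parentheses; points are genes, red bars are list medians, the solid line is the median of all genes (-0.02) and dashed lines mark 2-fold. Glucocorticoid-responsive genes have the highest median, 0.45, and extracellular matrix genes the lowest, -0.19.

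The contractile lists had medians from -0.19 to 0.05, while the well-covered Myh4, Ckm and Atp2a1 stood at -0.54, -0.50 and -0.49. The median of 22 fast fibre genes was 0.05, and 12 of them stood above 0. The sign of this median depended on the handling of values: it was -0.14 when values shared by several probes of one run of consecutive probes were set to missing, and 6 of the 22 genes had such a probe. For Myh4 the shared probe read 0.96 while the gene mean was -0.54. Tnnc2, fast troponin C, stood at 0.05 (29 probes, probe SD 0.23), Tnni2, fast troponin I, at 0.16 (12 probes, probe SD 0.22) and Casq1, the calcium store protein, at -0.40 (9 probes, probe SD 0.40). Past 2-fold lower was 1 fast fibre gene (4.55%, against 2.02% of all genes), Cacna1s, the voltage sensor of excitation, at -1.19 on 1 probe. The 17 slow fibre genes had a median of -0.19 with 7 above 0, from Myh7, slow myosin, at 0.23 (6 probes, probe SD 0.31) to Tnni1, slow troponin I, at -0.67 (2 probes, probe SD 0.16). Sarcomere and Z-disc genes had a median of 0.03 over 28 genes, with 0 past 2-fold (against 4.25% of all genes). Of the 28, 23 had several probes, and only 11 of all 1135 genes with several probes were called. Here Klhl41, a kelch protein of the sarcomere, was highest at 0.73 and Csrp3, a stretch-sensing Z-disc protein, lowest at -0.41 (8 probes, probe SD 0.66). Ankrd1, another stretch-responsive gene, stood at -0.03 (3 probes, probe SD 0.48).

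Acute phase and wound inflammation genes did not stand away from Pre as a group, with a median of 0.01 over 14 genes, 7 above and 7 below 0. Past 2-fold higher was 1 (7.14%, against 2.23% of all genes), C4b, a complement component, at 1.13 on 1 probe. Past 2-fold lower were 0 (against 2.02%). Hmox1, the stress-induced heme oxygenase, was at 0.78. Serpina3n, an acute phase protease inhibitor, stood at 0.34, and Stat3, which carries the interleukin-6 signal, at -0.97. Timp1, an inhibitor of matrix proteases raised in wounds, stood at -0.69. Only 14 of the 50 listed genes had a measured value, and Il6, Il1b, Tnf and Ccl2 were not among them.

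Immediate early genes had a median of -0.01 over 20 genes, 10 above and 10 below. Rgcc, a cell cycle regulator, was 5.67-fold above Pre at 2.504, and Sik1, a salt-inducible kinase, was lower at -1.04, on 1 probe each. Past 2-fold these were 1 higher and 1 lower (5% each, against 2.23% and 2.02% of all genes). Among the early transcription factors Jun stood at 0.74 (2 probes, probe SD 0.23), Klf10 at 0.70 (3 probes, probe SD 0.16) and Egr1 at -0.34. The clock list had 5 measured genes with a median of -0.06, from Csnk1d, a clock kinase, at 0.08 to Rora, a nuclear receptor of the clock, at -0.57 (2 probes, probe SD 0.84). Nr1d2, a rhythmic repressor of the clock loop, stood at -0.30 and Per1 at 0.04, and 5 of the 23 listed clock genes were measured in all.

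The 31 measured heat shock and chaperone genes had their median at 0.17, with 19 above 0. Of these genes 0 were past 2-fold, against 4.25% of all genes. However, 15 of the 31 had several probes, and such genes were called less often. Hspa8, the constitutive Hsp70, stood at 0.63 on 11 probes with a probe SD of 0.19, and Hspb7, a small heat shock protein, at 0.76 (6 probes, probe SD 0.45). Hspe1, the mitochondrial cochaperonin, was highest at 0.94 and Fkbp4, a cochaperone of steroid receptors, lowest at -0.50, on 1 probe each. Of the 10 ATF4 and ER stress genes (median 0.09), 1 (10%, against 2.23% of all genes) was past 2-fold higher. This was Sel1l, an adaptor for degradation of ER proteins, at 1.76. Atf4, the stress transcription factor, stood at 0.99 over 5 probes from 0.54 to 1.61. Ddit3, a target of ATF4, was at -0.52. Antioxidant and thioredoxin genes had a median of 0.11 over 25 genes, 18 above 0. Past 2-fold higher were 2 (8%, against 2.23% of all genes), Gstp1, a glutathione transferase, at 1.27 and Txnip. Nfe2l2, the master factor of this system, stood at 0.64.

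Extracellular matrix genes stood below Pre more often than not, with a median of -0.19 over 32 genes and 23 below 0. Past 2-fold were 0, against 4.25% of all genes. Col5a2, a fibrillar collagen, was lowest at -0.80 and Mgp, matrix Gla protein, highest at 0.81. Over the 7 genes with several probes the median was -0.054, and of those Lum, lumican, stood at -0.63 (2 probes, probe SD 0.22), Sparc at -0.19 (2 probes, probe SD 0.15) and Dcn, decorin, at 0.33 (4 probes, probe SD 0.21). In RNA from whole muscle, fewer cells of a type and less RNA per cell cannot be told apart.

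Markers of other cells were examined beside these groups. Leukocyte markers had a median of -0.32 over 8 measured of 29 genes, with Ptprc, the pan-leukocyte antigen CD45, highest at 0.92 and Lcp1 lowest at -0.57. Smooth muscle and pericyte markers had a median of -0.60 over 7 of 15. Actg2, enteric smooth muscle actin, was in the likely direction the highest of all 3860 genes at 2.51, 5.70-fold above Pre, on 1 probe, and a cDNA spot of this gene may bind other actins. The rest of that list did not stand with it: Acta2, vascular smooth muscle actin, was at 0.53, Cnn1, calponin, at -0.60, and Myl9, the smooth muscle myosin light chain, past 2-fold lower at -1.18. Neither Myh11 nor Tagln, the other defining markers, had a measured value. Endothelial markers had a median of -0.03 over 11 of 22, with Pecam1, the junction protein CD31, at -0.03 and Cdh5, the endothelial cadherin, at -0.88 (2 probes, probe SD 0.44). Rgcc is on this list too and was the 1 member past 2-fold higher (9.09%, against 2.23% of all genes).

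Fibroblast markers had a median of -0.05 over 9 of 15 genes, with Gsn, gelsolin, at 0.47 (11 probes, probe SD 0.28). Adipocyte markers had a median of 0.19 over 4 of 12, with Fabp4, the fat cell fatty acid binder, at 0.40 (7 probes, probe SD 0.33) and Retn, resistin, at -0.82 on 1 probe. For blood the median was 0.29 over 5 of 15, with alpha globin Hba-a1 at 0.13 (8 probes, probe SD 0.35) and Rhd, a blood group gene, at -1.52. Nerve markers (2 of 17, median -0.21), skin markers (3 of 14, median -0.57) and markers of satellite cells and denervated muscle (4 of 19, median 0.35) had few measured genes. The last of these medians was 0.075 when shared values were set to missing. Among the measured genes Krt1, a skin keratin, stood at 0.14 and Pmp22, a myelin gene, at 0.12. The part of other cell types in the results above was not tested.

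Single-probe genes filled most of the extremes. After Actg2 and Rgcc came Mlycd, then Ift20, a carrier between Golgi and cilium, at 2.09, Ei24, an autophagy gene, at 2.002 and Ints4, a subunit of the Integrator complex, at 1.90. Nt5dc3 stood at 1.86, Incenp, a mitotic chromosome passenger, at 1.85, Parvb, a focal adhesion adaptor, at 1.81 and Ubb-ps, a ubiquitin pseudogene whose spot may bind ubiquitin transcripts, at 1.78. Lowest was Abhd10, a mitochondrial thioesterase, at -2.12, 0.23 of the Pre level, followed by H2bc4, a histone H2B gene, and Pygb at -1.59 each. The 5 measured histone genes had a median of -0.21. Hps4, needed for lysosome-related organelles, stood at -1.53, Fblim1, a focal adhesion protein, Fam120b and Gipc1 at -1.48 each, C2cd2l at -1.47, Rtp4, an interferon-induced gene, at -1.46, Map3k7cl at -1.43 and Sgsm3 at -1.39. No second probe checked any of these values.

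The paced mice also carried a pacer, and their arrays used the same Pre RNA, so an unusual level of a gene in Pre would appear on every array. The values are therefore given side by side only. Rgcc stood at 2.504 in sham muscle and at 2.19, 2.52, 3.96, 2.38 and 2.37 at 0, 1, 3, 8 and 24 h after pacing. Ppp1r3c stood at 2.11 in sham muscle, above its paced values of 1.48, 1.47, 1.11, 1.19 and 1.20 at those times. Pdk4 was at 1.88 in sham muscle and at 3.54, 1.80, 2.20, 2.22 and 1.70 after pacing, with its highest value at 0 h. Trim63 was at 1.61 in sham muscle and between 1.26 and 2.49 after pacing. Ei24 was at 2.002 in sham muscle and between 1.27 and 2.35 after pacing. These genes stood more than 2-fold above Pre on each of the 6 arrays.

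The other genes quoted here were not past 2-fold from Pre on every array. Actg2 stood at 2.51 in sham muscle and between -0.89 and -0.02 after pacing. Ift20 stood at 2.09 in sham muscle and between -0.56 and 0.41 after pacing. Mlycd stood at 2.15 in sham muscle and at 0.67, 1.07, 0.08, 1.00 and 0.96 at 0, 1, 3, 8 and 24 h. Txnip stood at 1.17 in sham muscle, near 1.06 at 0 h, 0.88 at 1 h and 0.92 at 3 h, with 0.25 at 8 h and 0.29 at 24 h. Sik1 was below Pre in sham muscle, at -1.04, and between 0.81 and 2.61 after pacing, and H2bc4 was at -1.59 in sham muscle and between -0.43 and 0.75 after pacing. Abhd10, the lowest sham gene, was at -2.12 there and at 0.10, -1.08, -2.41, -0.34 and -1.77 after pacing. Among the other lowest sham genes, Fam120b stood at -1.81 at 3 h, Hps4 at -1.45, Gipc1 at -1.36 and Fblim1 at -1.27. Pygb stood at -1.25 at that time, Sgsm3 at -1.21, Map3k7cl at -1.09, Rhd at -0.98, Rtp4 at -0.66 and C2cd2l at -0.33. At 0, 1, 8 and 24 h Hps4 was at -0.04, -0.35, -0.19 and -0.56. Pygb was then at 0.37, -0.35, -0.25 and -0.75. The cause of this pattern was not tested. With 1 array per group, none of these contrasts has a replicate.

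**Figure D5:**
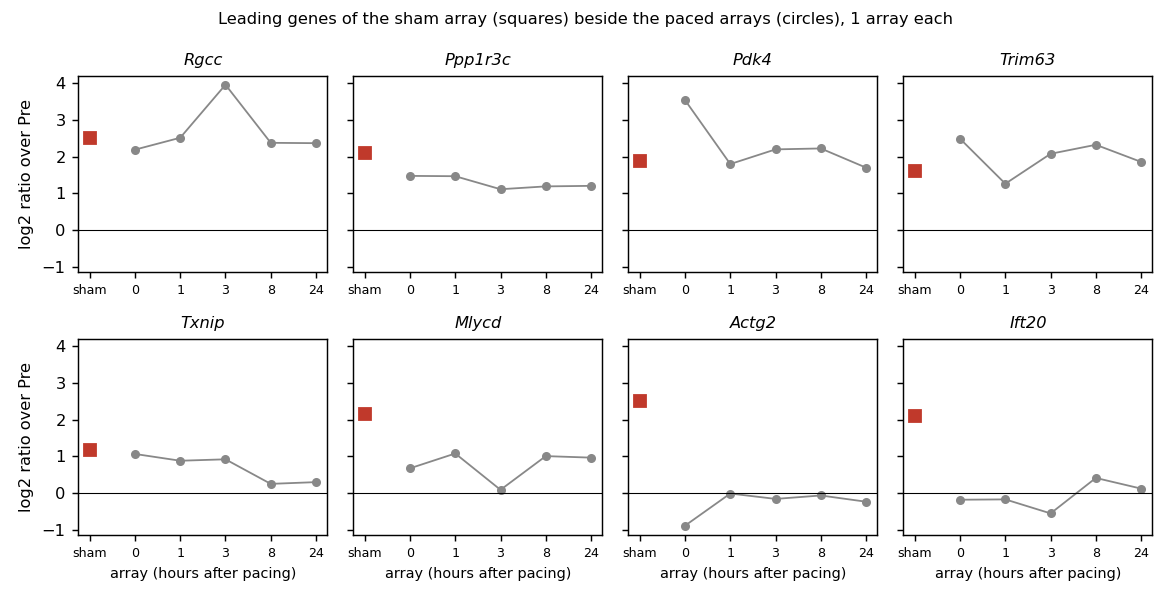
Log2 ratio over Pre (vertical axis) of 8 leading genes on the sham array (red square) and on the arrays taken 0, 1, 3, 8 and 24 h after pacing (grey circles), 1 array per group and no error bar. Rgcc, Ppp1r3c, Pdk4 and Trim63 lie above 1 on every array, while Actg2 and Ift20 are high on the sham array and under 0.5 on the others.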

How the data were processed

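Total RNA of the sham muscle and of Pre was hybridised as 2 channels of 1 array, per the labels. The authors deposited a log10 ratio per probe for 13872 probes; base 10 was read from 47 cells at 9.64e-17, the value that rounding of a ratio of 1 leaves in that base. Scanner, background correction and normalisation are not given in the sources used here. On the sham array 485 empty cells and 201 zeros (18 of them rounding residues) were set to missing, which left 95.1% of probes. Of the measured probes, 154 carried a value shared with another probe of the same run of 289 probes; these were kept, with their removal as an alternative. The 12 runs that are 1 in every 4 held 66.4% of the empty cells.

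Values were converted to log2 and centred on the array median, which moved them by under 0.001. Platform annotation gave 1 symbol to 6609 probes, several to 284 and none to 6979; by Entrez ID 6599 were found in RefSeq's GRCm38.p6 gene table, which gave names only. Probes of one symbol were averaged into a gene value. Genes named are the 12 highest and 12 lowest, those past 2-fold on several probes of one sign (up to 8 each way), list members past 2-fold or else the extremes of a list, and muscle and smooth muscle markers. Other list members were chosen as examples after their values were seen. Members and lists were chosen with earlier results of these data known. The number of arrays limits precision, and no test was run. The calculation was tested on simulated data with less noise than the probes of this array show. That run therefore checked the arithmetic and says nothing about how reliable the calls are. Tools were Python 3.11.15, numpy 2.4.6, pandas 2.3.3 and matplotlib 3.10.9.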

Additional observations from a re-analysis of the deposited data

How the results depend on the processing

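The counts of 86 higher and 78 lower genes stayed within 1.5 times their value when zeros were kept (86 and 78), shared values removed (80 and 76), centring omitted (86 and 78) or done per run (84 and 76), probe medians used (86 and 78), probes with several symbols added (88 and 84), and 1 run in every 4 left out (82 and 57, an alternative chosen after seeing the data). Calling at 3 robust standard deviations gave 32 and 13, and keeping only genes with several probes gave 6 and 5, by construction a smaller set. Of 241 list medians recomputed, 224 moved by under 0.1. The fast fibre median was -0.14 without shared values, -0.086 with probe medians and -0.11 without 1 run in every 4, so its sign is not settled. The median of satellite cell markers was 0.19 with zeros kept and 0.075 without shared values. With several probes required, medians were 0.66 for 5 atrophy genes, 1.15 for 4 glucocorticoid-responsive genes, 0.56 for immediate early genes, -0.37 for acute phase genes, -0.30 for clock genes, -0.054 for extracellular matrix, 0.33 for adipocyte markers and 0.41 for the proteasome, over fewer genes. Without 1 run in every 4 they were -0.060 for slow fibre genes, -0.21 for leukocyte markers, -0.31 for smooth muscle markers and -0.040 for histones. The cause of these shifts was not tested. Of 52 named genes past 2-fold, Pfkfb3, Rps19, Dmpk and E230024E03Rik fell under it with centring per run, Dmpk without shared values and Cdo1, at -0.12, without 1 run in every 4, which also left 11 of them unmeasured, Mlycd, Gadd45a and Cacna1s among them.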

Other observations

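Several further genes past 2-fold, picked here after their values were seen and each measured on 1 probe, are given as values. Adipor2, an adiponectin receptor, stood at 1.67 in sham muscle relative to Pre, and Depp1, a gene that FoxO factors induce, at 1.21. Ubr4, a ubiquitin ligase of the N-end rule pathway, stood at 1.51, Ifrd1, a stress-regulated muscle gene, at 1.29 and Bach1, a heme-sensing repressor, at 1.47. On the lower side Mitf, a transcription factor of lysosome genes, stood at -1.21, Axin1, a scaffold of Wnt signalling, at -1.18 and Eif4ebp3, a translation inhibitor, at -1.07.

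Of the symbol prefixes shared by at least 15 measured genes, those of ribosomal, respiratory chain, ATPase and initiation factor genes (Rpl, Rps, Mrpl, Cox, Atp and Eif) overlap groups described above, and the rest gave the following medians. The 54 solute carrier genes (Slc) had a median of -0.01, with 27 above and 27 below 0 and 0 past 2-fold (against 4.25% of all genes). The median was -0.01 for the 22 Rab genes, 0.06 for the 30 zinc finger genes (Zfp) and -0.09 for the 43 transmembrane protein genes (Tmem). The median was 0.07 for 23 Ppp, 0.03 for 17 Rnf, 0.02 for 28 Fam, -0.08 for 16 Ube, -0.12 for 15 Ccdc and -0.15 for 21 Gm genes. The 16 genes whose symbol starts with Cd and a number, mostly surface antigens, had a median of -0.28 with 11 below 0. Past 2-fold higher were 2 Ppp, 2 Zfp, 1 Tmem and 1 Cd gene, against 2.23% of all genes. Past 2-fold lower were 2 Ppp, 1 Fam and 1 Gm gene, against 2.02%. The Rab, Rnf, Ube and Ccdc groups had 0 in either direction. The grouping by prefix was made after the data were seen.

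Probes without a gene symbol also departed from Pre: of 6483 measured, 187 were 2-fold higher and 244 lower, 6.65% in all, against 167 and 167 of the 6422 measured probes with 1 symbol, 5.20%. A probe at a shared value was found in 74 genes. Of these 74, 6 were called, all higher, where 86 of all 3860 genes were called higher and 78 lower. They were Sdc1 at 1.55, Pgm5 and Irak1bp1 at 1.27, Ctsz and Ptpdc1 at 1.19, and Med21 at 1.01.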
